A study of Mus musculus with 20 samples.

Results

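The genes followed here are 10 genes of the NRF2 antioxidant system in mouse liver, namely the regulators Nfe2l2 and Keap1 and 8 enzymes. Nqo1, Gclc, Gclm, Txnrd1, Srxn1 and Gsr encode enzymes known as NRF2 targets in the mouse. Cat and Sod2 encode catalase and the mitochondrial superoxide dismutase, which are antioxidant enzymes with other controls as well. The 10 genes were taken by symbol from 19505 genes on the array. Each was read by 1 probe set, and all 10 were among the 11844 genes tested.

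NRF2, the protein of the gene Nfe2l2, switches on genes whose enzymes remove reactive oxygen and electrophiles. KEAP1 holds NRF2 in the cytoplasm and marks it for breakdown, and oxidants or electrophiles that modify KEAP1 let NRF2 reach the nucleus, where it binds DNA together with small MAF proteins. The liver carries much of this defence, because it clears foreign compounds and has a high turnover of glutathione. Much of the control of NRF2 acts on the protein, so the RNA level of Nfe2l2 is not a measure of NRF2 activity.

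The livers came from 20 male ob/ob mice, an obese strain without functional leptin, so every group shares that genotype. There were 4 groups of 5 mice. The combined group breathed fine airborne particles (PM2.5) in an exposure chamber for 6 hours a day and drank metformin, a drug for type 2 diabetes. The PM2.5 group breathed the particles without the drug, the metformin group drank the drug, and the remaining mice breathed filtered air. Exposure lasted 2 weeks in rooms at 22 degrees C and 55% relative humidity. The labels give no age, metformin dose or particle level, and the air of the metformin group is not named. Chamber hours are stated for PM2.5 exposure alone, so the particles and the stay in the chamber cannot be told apart. Mice are numbered within a group by the order of the samples, which pairs no mice across groups. No label says that the mice were caged or handled apart from each other, so p-values here measure the spread between these 20 livers.

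Each value is a log2 signal, on which a difference of 1 is a doubling. Negative-control probe sets gave the background. Their median was 4.44 to 4.79 in the combined group, 4.34 to 4.52 in the PM2.5 group, 4.45 to 4.54 in the metformin group and 4.36 to 4.43 in filtered air. The mean of their 95th percentile over the 20 arrays was 8.36, and 44% of the tested genes lay above it. The combined arrays varied most: they correlated with each other at 0.9723 to 0.9931, against 0.9893 to 0.994 within filtered air. A gene is said to have risen or fallen where limma's two-sided test gave a Benjamini-Hochberg adjusted p under 0.05 over all 11844 genes. Errors after ± are standard errors (SE) of a log2 difference unless SD is written.

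The livers expressed all 10 hepatocyte markers above the background percentile in each group. The 11 measured markers of Kupffer cells and macrophages gave a summed signal of 11.19 to 14.52 (log2) in the combined group, 14 to 14.83 in the PM2.5 group, 13.23 to 13.69 in the metformin group and 13.65 to 14.53 in filtered air. Of these 11, 1 rose and 6 fell in the combined group against filtered air, where 18.7% of all tested genes rose and 16.2% fell, and 8 fell against PM2.5, where 4.73% of all tested genes fell. The 8 endothelial markers summed to 12.52 to 13.67 in the combined group, 13.47 to 13.95 in the PM2.5 group, 13.13 to 13.59 in the metformin group and 13.45 to 13.88 in filtered air. Of these 8, 4 fell in the combined group against PM2.5 and 1 fell against filtered air. The 8 stellate and fibroblast markers, of which 2 had means above 8.36, summed to 15.57 to 16.1 in the combined group and 16.19 to 16.51 in filtered air. Their sums were 15.93 to 16.49 in the PM2.5 group and 15.88 to 16.44 in the metformin group. Of the 7 tested, 1 rose and 2 fell in the combined group against filtered air. In whole liver RNA, fewer cells of a type and less RNA per cell cannot be told apart. The defining markers of neutrophils, of T and NK cells, of B cells, of cholangiocytes and of adipocytes were all below 8.36 in each group's mean.

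NRF2 with a small MAF protein binds the antioxidant response element, whose core was searched here as TGACNNNGC on both strands. RefSeq promoter windows (GRCm38.p6, 250 bases before to 50 after a start site) were found for 8 of the 10 genes. Those of Gclc and Gsr were not analysed here. The core stood in a window of 4 of these 8 genes, Gclm, Txnrd1, Srxn1 and Nfe2l2, and of 3781 of the 27025 genes in the table. Counted by window it stood in 12.4% of 32851. In Txnrd1 it stood in 1 of 3 windows, and in Srxn1 after the start site. The stretches around 3 of these matches follow, since they show what the core looks like in a glutathione gene, a thioredoxin gene and the gene of NRF2 itself. They are printed 5′ to 3′ on the gene's strand with the match in capitals. A match in Gclm and Txnrd1 reads as the reverse complement of the core. No binding was measured, so a match is a description of the letters alone.
Gclm, chr3:122245383-122245471, plus strand: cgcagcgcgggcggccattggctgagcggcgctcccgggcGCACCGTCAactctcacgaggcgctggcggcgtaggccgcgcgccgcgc
Txnrd1, chr10:82859074-82859162, plus strand: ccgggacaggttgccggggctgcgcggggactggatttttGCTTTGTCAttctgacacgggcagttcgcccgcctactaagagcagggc
Nfe2l2, chr2:75704855-75704913, minus strand: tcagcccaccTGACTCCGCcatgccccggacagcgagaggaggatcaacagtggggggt

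Across the 5 comparisons between groups, Nfe2l2 fell in PM2.5 and in combined livers against filtered air, Keap1 rose in combined livers against filtered air, and none of the 8 enzymes passed the test in any comparison. Both genes that passed read near the background level of 8.36. Each of their calls, in PM2.5 and in combined livers, was lost under some of the alternatives given beside its values. Against filtered air, 1 of the 10 genes passed in the PM2.5 group (5.17% of all tested genes), 0 in the metformin group (3.15%) and 2 in the combined group (34.9%). The combined group gave 0 of 10 against PM2.5 (11.7% of tested genes) and 0 of 10 against metformin (16.3%). In the test of any difference among the 4 groups, 1 of 10 passed, which was Nfe2l2, beside 32.1% of tested genes. The interaction subtracts the metformin-minus-air difference from the combined-minus-PM2.5 difference, and 0 of 10 passed there, beside 0.186% of tested genes. No gene of the 10 separated the combined livers from filtered air, PM2.5 or metformin livers without overlap, beside 20.8%, 6.34% and 9.31% of tested genes.

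At an unadjusted p under 0.05, limma gave 3, 2, 2, 2 and 2 of the 10 genes in those 5 comparisons, in the order just used. The shares of all tested genes were 22.5%, 18.6%, 44.0%, 27.0% and 30.9%. The median size of the log2 difference over the 10 genes was 0.13 in combined livers against filtered air, and 0.325 over all tested genes. For PM2.5 against filtered air it was 0.118 over the 10 and 0.208 over all, and for metformin against filtered air 0.18 and 0.188.

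**Figure D1:**
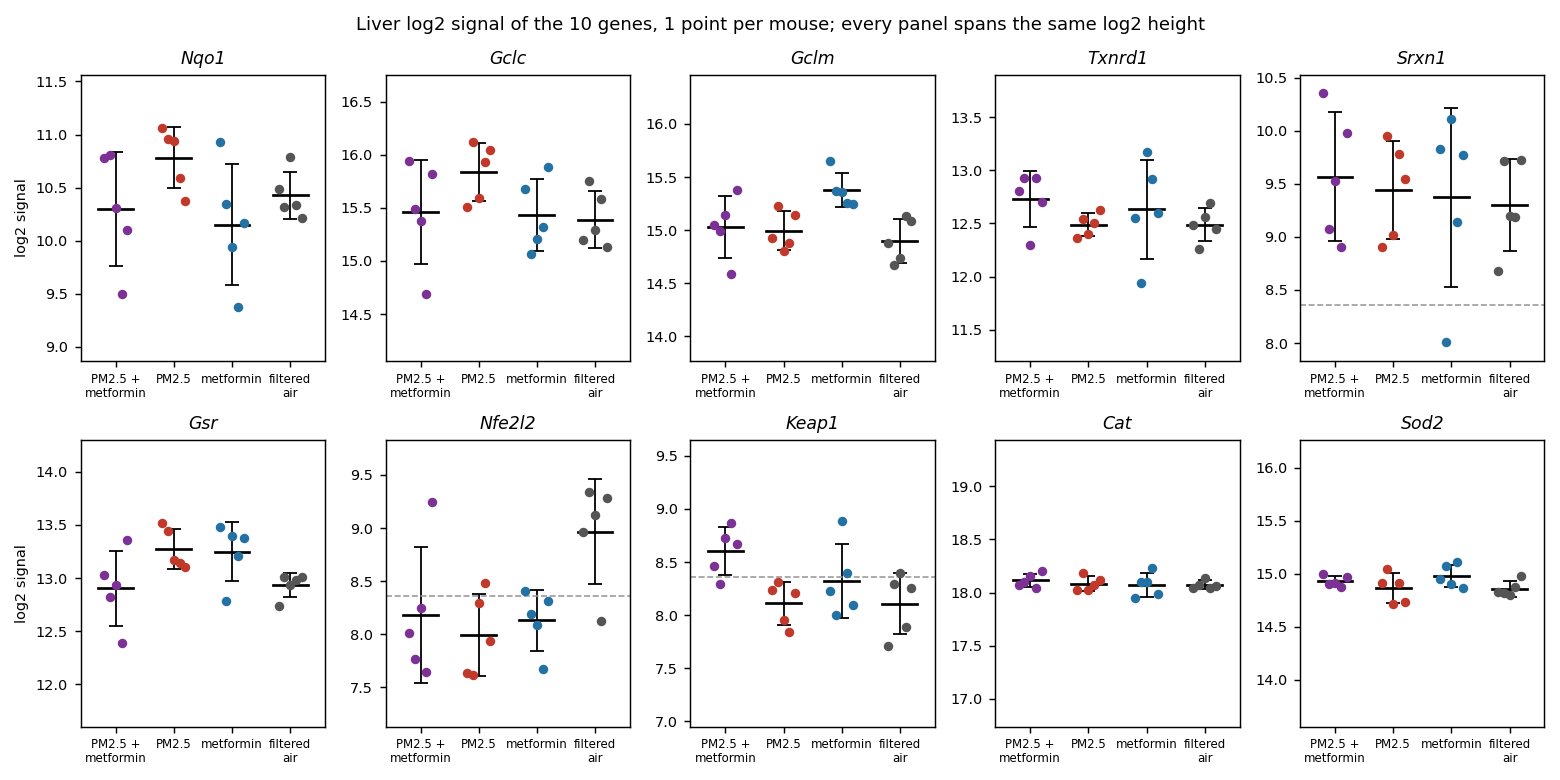
Log2 signal of the 10 genes in each of 20 mice, 1 panel per gene, with the groups from combined at left to filtered air at right; points are mice, bars are means ± SD (n = 5) and the dashed line is the background level of 8.36. Nfe2l2 averages 8.18 in combined, 7.99 in PM2.5, 8.13 in metformin and 8.97 in filtered-air livers, while Cat and Sod2 barely vary.

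Nfe2l2 encodes NRF2. Its log2 signal was 7.63, 7.62, 8.29, 8.48 and 7.94 in the 5 PM2.5 livers. It was 8.97, 9.34, 9.12, 8.12 and 9.28 in the 5 filtered-air livers. All PM2.5 livers lay below 4 of the filtered-air livers, and filtered-air mouse 4 lay within the PM2.5 range. The difference was −0.97 ± 0.27 (1.96-fold lower, adjusted p = 0.0391 by limma). A two-sided exact permutation test of these 10 livers gave p = 0.0238, unadjusted. Leaving out 1 mouse kept the difference between −1.19 and −0.88, but the call was lost in 7 of 10 such fits, with adjusted p from 0.0117 to 0.124. They were those without filtered-air mouse 1 (−0.97, adjusted p = 0.0858), 2 (−0.88, 0.0925), 3 (−0.94, 0.0821) or 5 (−0.90, 0.0886), and without PM2.5 mouse 1 (−0.88, 0.0695), 2 (−0.88, 0.124) or 5 (−0.96, 0.0936).

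In the 5 combined livers Nfe2l2 read 8.01, 7.76, 8.25, 7.64 and 9.25. Combined mouse 5 reached the level of the filtered-air livers, and the other four lay with the PM2.5 livers. Against filtered air the difference was −0.78 ± 0.27 (1.72-fold lower, adjusted p = 0.0287 by limma), while the exact permutation test gave p = 0.0873. The call was lost in 6 of 10 fits without 1 mouse. They were those without filtered-air mouse 2 (−0.69, adjusted p = 0.0757), 3 (−0.75, 0.0583) or 5 (−0.71, 0.0683), and without combined mouse 1 (−0.74, 0.0547), 2 (−0.68, 0.0767) or 4 (−0.65, 0.0878). Without combined mouse 5 the difference was −1.05 (adjusted p = 0.0015).

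With metformin alone the 5 livers read 8.40, 8.19, 8.08, 7.67 and 8.32 for Nfe2l2. They lay below 4 of the filtered-air livers, and filtered-air mouse 4 again lay inside their range. The difference against filtered air was −0.83 ± 0.27, which missed the threshold (adjusted p = 0.0922 by limma). Without filtered-air mouse 4 it passed, at −1.05 (adjusted p = 0.0288). Its adjusted p reached 0.208 over the fits without 1 mouse and 0.331 over the other alternatives, where the difference was as small as −0.50. The combined livers differed little from the metformin livers, by 0.05 ± 0.27, and from the PM2.5 livers, by 0.19 ± 0.27, and neither difference passed (adjusted p = 0.921 and 0.708). The interaction was 1.02 ± 0.38 (adjusted p = 0.251), so a difference between the metformin effect with and without PM2.5 was not called.

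The signal of Nfe2l2 was close to background. It exceeded the 95th percentile of its own array's negative controls in 1 of 5 combined, 2 of 5 PM2.5, 2 of 5 metformin and 4 of 5 filtered-air livers. The negative-control median itself was higher in the combined and metformin groups than in filtered air, without overlap. It therefore cannot be told apart from treatment there. With that median as a covariate, Nfe2l2 was −0.14 in combined livers against filtered air and not called (adjusted p = 0.792). Without combined mice 2 and 4, whose arrays had the highest negative-control medians, it was −0.46 (adjusted p = 0.275). Combined mouse 5, which had the highest Nfe2l2 in its group, also had the highest macrophage marker sum there (14.52), and its part in the Nfe2l2 result was not tested.

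**Figure D2:**
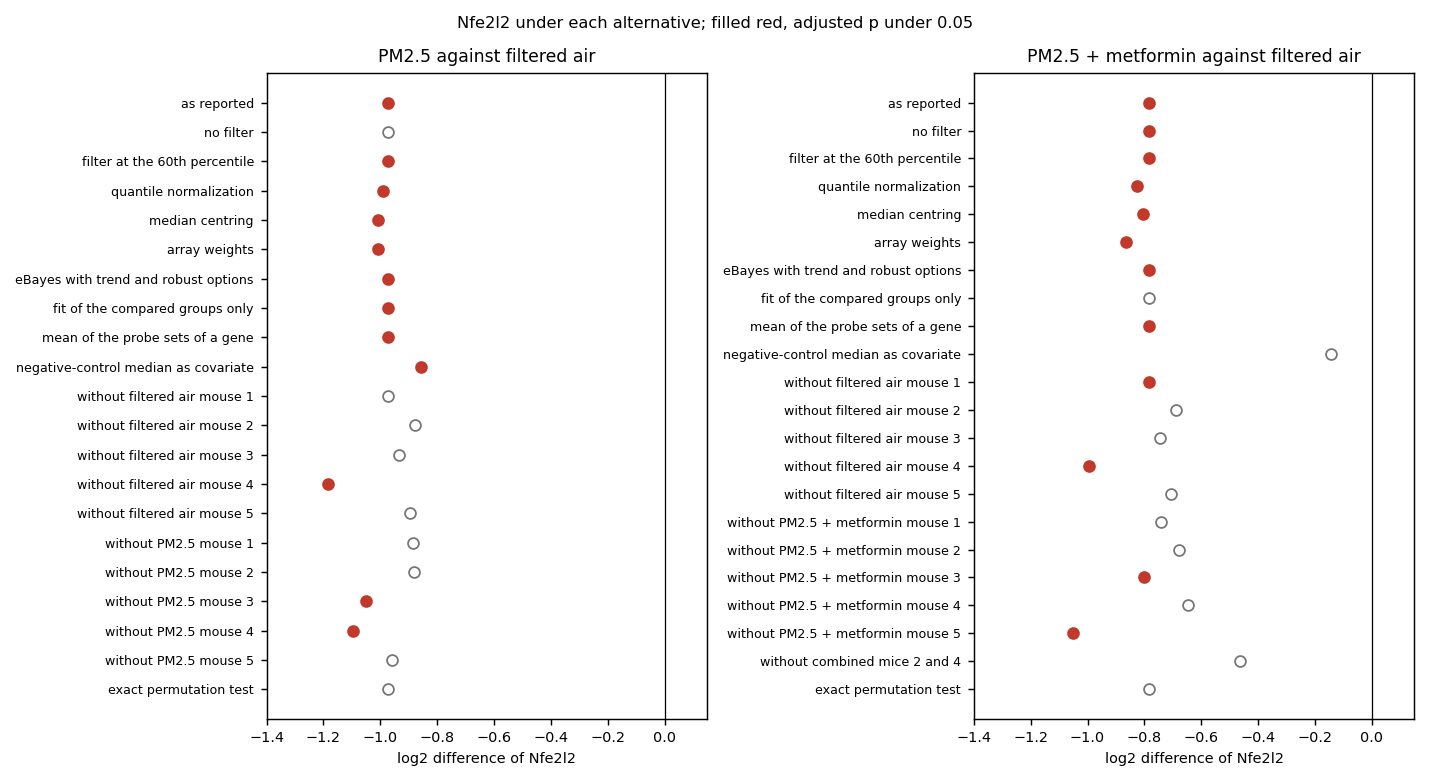
Log2 difference of Nfe2l2 under each alternative way of processing, for PM2.5 against filtered air and for the combined group against filtered air; points are differences and filled points have an adjusted p under 0.05. All values lie below 0, and in the combined group the covariate moves the difference to −0.14.

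Keap1 encodes the sensor that holds NRF2. It read 8.46, 8.30, 8.72, 8.87 and 8.67 in the combined livers. It read 7.71, 8.30, 8.39, 7.89 and 8.25 in filtered air. The combined livers were mostly higher, and combined mouse 2 lay within the filtered-air range. The rise was 0.49 ± 0.17 (1.41-fold, adjusted p = 0.0306 by limma, exact permutation p = 0.0159).

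Keap1 also read 8.24, 8.31, 7.96, 7.84 and 8.21 in PM2.5 livers, and 8.23, 8.00, 8.89, 8.40 and 8.10 in metformin livers. Neither group stood apart from filtered air (0.0025 ± 0.17 for PM2.5, adjusted p = 0.996, and 0.22 ± 0.17 for metformin, adjusted p = 0.541, by limma). Combined livers exceeded PM2.5 livers by 0.49 ± 0.17, which did not pass (adjusted p = 0.0679), although the exact permutation test gave p = 0.0159. Against metformin the difference was 0.28 ± 0.17 (adjusted p = 0.291). Keap1 exceeded its array's background percentile in 4 of 5 combined, 0 of 5 PM2.5, 1 of 5 metformin and 3 of 5 filtered-air livers. Its rise in combined livers against filtered air was not called with the negative-control covariate (0.44, adjusted p = 0.223) or without combined mice 2 and 4 (0.51, adjusted p = 0.0691). Single omissions that lost the call were filtered-air mouse 1 (0.39, adjusted p = 0.0970) or 4 (0.44, 0.0714), and combined mouse 3 (0.46, 0.0638) or 4 (0.43, 0.0825).

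Gclm is the modifier subunit of glutamate-cysteine ligase, which makes the first bond of glutathione. It read 15.65, 15.37, 15.36, 15.25 and 15.25 in metformin livers. In filtered air it read 14.87, 14.67, 14.73, 15.13 and 15.09. The 2 groups did not overlap, as held for 6.75% of all tested genes. The difference was 0.48 ± 0.15 (1.39-fold higher), with adjusted p = 0.0783 by limma and an exact permutation p of 0.00794, the smallest that 5 against 5 livers can give. The lack of overlap alone fixes that exact p, which adds nothing to it.

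Gclm read 15.05, 14.99, 15.14, 14.58 and 15.38 in combined livers, and 14.93, 15.23, 14.80, 14.88 and 15.14 in PM2.5 livers. Those groups overlapped each other and filtered air. The combined livers were lower than the metformin livers by a log2 difference of −0.35 ± 0.15, which did not pass (adjusted p = 0.11). Without combined mouse 5 that difference was −0.43 (adjusted p = 0.0423). Over all fits without 1 mouse it was as small as −0.24 (adjusted p up to 0.302), and over the other alternatives −0.19 (up to 0.512). The interaction for Gclm was −0.44 ± 0.21 (adjusted p = 0.364).

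Gclc is the catalytic subunit of the same ligase. It read 15.51, 16.12, 15.59, 15.93 and 16.05 in PM2.5 livers, against 15.19, 15.75, 15.29, 15.58 and 15.13 in filtered air. The PM2.5 livers leaned high, with overlap. The difference was 0.45 ± 0.21 (adjusted p = 0.211 by limma, exact permutation p = 0.0397). Gclc read 15.94, 15.49, 15.37, 14.69 and 15.82 in combined livers and 15.68, 15.07, 15.21, 15.32 and 15.89 in metformin livers. Combined mouse 4 was the lowest of all 20 livers. The combined group was below PM2.5 by a log2 difference of −0.38 ± 0.21, which did not pass (adjusted p = 0.261). Over the alternatives other than leaving out 1 mouse it was as small as −0.13 (adjusted p up to 0.827). So the catalytic subunit had its highest group mean with PM2.5 and the modifier subunit with metformin, and none of those differences passed the test.

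Gsr is glutathione reductase, which returns oxidised glutathione to its reduced form. It read 13.52, 13.44, 13.17, 13.14 and 13.10 in PM2.5 livers. In filtered air it read 12.74, 13.01, 12.93, 12.98 and 13.01. All PM2.5 livers lay above all filtered-air livers, as 6.94% of tested genes did in one direction or the other. The difference was 0.34 ± 0.16 (1.27-fold), with adjusted p = 0.216 by limma and an exact permutation p of 0.00794. The lack of overlap alone fixes that exact p, which adds nothing to it.

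In combined livers Gsr read 13.03, 12.82, 12.93, 12.39 and 13.36, and in metformin livers 13.48, 12.79, 13.39, 13.20 and 13.38. The combined livers overlapped all other groups. They were lower than PM2.5 livers by a log2 difference of −0.37 ± 0.16 (adjusted p = 0.144) and lower than metformin livers by −0.34 ± 0.16 (adjusted p = 0.153). Without combined mouse 5 both passed, at −0.48 (adjusted p = 0.0378) and −0.46 (adjusted p = 0.0449). Over all fits without 1 mouse they were as small as −0.24 (adjusted p up to 0.393) and −0.21 (up to 0.401). Over the other alternatives they were as small as −0.17 (up to 0.689) and −0.14 (up to 0.657). The interaction was −0.68 ± 0.23 (unadjusted p = 0.00688 by limma, adjusted p = 0.195).

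Txnrd1 is the cytosolic thioredoxin reductase, which keeps thioredoxin reduced. It read 12.80, 12.93, 12.29, 12.93 and 12.70 in combined livers, 12.37, 12.54, 12.40, 12.50 and 12.63 in PM2.5 livers, 12.55, 11.93, 13.17, 12.92 and 12.60 in metformin livers and 12.48, 12.26, 12.56, 12.69 and 12.45 in filtered air. Every pair of groups overlapped, and the metformin livers spread the most. The log2 difference was 0.24 ± 0.18 for combined against filtered air (adjusted p = 0.313 by limma).

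Srxn1 is sulfiredoxin, which repairs overoxidised peroxiredoxins. It varied most of the 10 genes, over 2.35 log2 units in 20 livers, and its spread within groups (pooled SD 0.61) was at or above that of 96.5% of tested genes. The lowest liver was metformin mouse 2 at 8.01, and the highest was combined mouse 1 at 10.35. The group means spanned 0.27, and the log2 difference of combined livers from filtered air was 0.27 ± 0.34 (adjusted p = 0.587). Differences of the groups in Srxn1 were therefore smaller than the spread among mice of a group.

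Nqo1 is the quinone reductase that is often used as a readout of NRF2. It read 11.06, 10.95, 10.94, 10.59 and 10.37 in PM2.5 livers, against 10.48, 10.32, 10.79, 10.33 and 10.22 in filtered air. The PM2.5 livers leaned high, with overlap, at 0.35 ± 0.25 (adjusted p = 0.422 by limma). It read 10.78, 10.81, 10.30, 9.50 and 10.10 in combined livers and 10.93, 10.35, 9.94, 9.37 and 10.17 in metformin livers. The lowest liver in each of those groups lay below every PM2.5 and filtered-air liver, and the differences of the groups from filtered air were −0.13 ± 0.25 and −0.28 ± 0.25 (adjusted p = 0.724 and 0.594). The combined livers were below the PM2.5 livers by a log2 difference of −0.48 ± 0.25 (adjusted p = 0.222).

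Cat encodes catalase, the peroxisomal enzyme that splits hydrogen peroxide. It was nearly flat, within 0.28 log2 units over all 20 livers, with means of 18.12 in combined, 18.08 in PM2.5, 18.07 in metformin and 18.07 in filtered-air livers. Its mean lay 0.94 below the highest value on the arrays. Sod2, which turns superoxide into hydrogen peroxide in mitochondria, varied by 0.39 over all livers, with means of 14.93, 14.87, 14.98 and 14.86 in the same order of groups. Their spreads within groups were among the smallest measured, at the 0.177 and 0.473 percentiles of tested genes. Neither gene passed in any of the 5 comparisons by limma (adjusted p from 0.568 to 0.994), and the 95% intervals of Cat against filtered air ran from −0.20 to 0.24.

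For the 8 enzymes, the lowest and the highest limit among their separate intervals are given here. The intervals are not adjusted for the number of genes or comparisons, so true differences may lie outside them. The 95% intervals ran from 0.673-fold to 1.85-fold in PM2.5 against filtered air, from 0.574-fold to 1.72-fold in metformin against filtered air and from 0.636-fold to 1.97-fold in combined against filtered air. Against PM2.5 the combined group had bounds of 0.498-fold and 1.79-fold, and against metformin 0.624-fold and 1.87-fold. With 5 livers per group, a missed threshold does not show that an enzyme stayed level within these bounds.

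**Figure D3:**
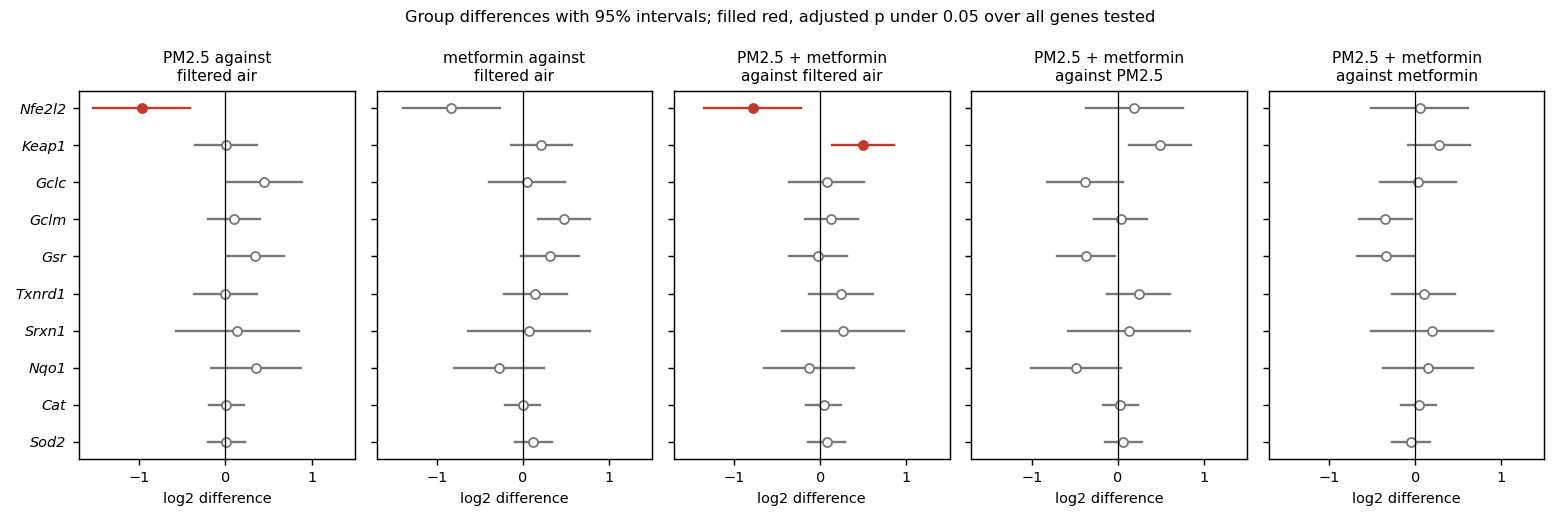
Log2 differences of the 10 genes in the 5 comparisons, with 95% intervals from limma; filled red points have an adjusted p under 0.05. Nfe2l2 lies below 0 in PM2.5, metformin and combined livers against filtered air, and Keap1 lies at 0.49 in combined livers against filtered air.

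Genes of the set could also vary together from mouse to mouse. With the group means removed, 45 pairs were correlated over the 20 livers, with permutation p-values from 100000 shuffles within groups. None passed after adjustment. The highest were Gclc with Srxn1 (Pearson r = 0.668, p = 0.00351, adjusted p = 0.094, and Spearman rho = 0.648, p = 0.00678) and Srxn1 with Gsr (r = 0.696, p = 0.00418, adjusted p = 0.094, and rho = 0.678, p = 0.00426). Without the 2 livers farthest from the median, r was 0.592 and 0.59. Gclc with Srxn1 had a positive r in all 4 groups, and Srxn1 with Gsr in 3.

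The genes most like a member over the 20 livers were taken as a description, with group means kept. For Nqo1 they were Pir (r = 0.780), Gsc2 (0.765), Gpn1 (0.752), Arpc2 (0.746) and Fut8 (0.745). For Nfe2l2 they were Cfap126 (0.861), Nudt13 (0.860), Slc66a2 (0.858), Inhba (0.835) and Ppp1r3c (0.830). These were the highest of 11844 genes and share the arrays with the member they are set beside.

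Beside the 10 genes, lists of related genes were counted. The list of NRF2 system regulators, which holds Nfe2l2 and Keap1, had 17 tested genes. Of these, 1 rose and 2 fell in PM2.5 against filtered air, 1 rose in metformin against filtered air, and 6 rose and 2 fell in combined against filtered air. The median difference was 0.09 in PM2.5, 0.22 in metformin and 0.24 in combined livers, beside 0.02, 0.0024 and 0.01 over all genes. Over all 11844 tested genes 316 rose and 296 fell with PM2.5, 1.26% rose and 1.89% fell with metformin, and 18.7% rose and 16.2% fell in the combined group. Crebbp, a coactivator that acetylates NRF2, averaged 11.62 ± 0.24 in combined, 10.76 ± 0.33 in PM2.5, 10.57 ± 0.18 in metformin and 10.15 ± 0.23 in filtered-air livers (SD, n = 5 each). It rose in combined livers against filtered air by 1.48 ± 0.16 (adjusted p = 6.44e-06 by limma). Rbx1, a subunit of the ubiquitin ligase that KEAP1 serves, fell by 0.90 ± 0.18 in combined livers (adjusted p = 0.000745), a call lost with the negative-control covariate (−0.67, adjusted p = 0.0669). Rxra, a nuclear receptor that can repress NRF2, rose with metformin by 1.21 ± 0.24 (adjusted p = 0.00904).

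The list of other NRF2 targets had 34 tested genes of 40. In PM2.5 against filtered air 1 rose and 0 fell, in metformin 2 rose and 4 fell, and in combined 7 rose and 7 fell. These were 2.94%, 17.6% and 41.2% of the list, beside 5.17%, 3.15% and 34.9% of all tested genes. The combined group had 1 higher and 5 lower than PM2.5, and 5 higher and 0 lower than metformin. Over all tested genes those shares were 6.95% and 4.73% against PM2.5, and 9.69% and 6.63% against metformin. The medians were 0.17, −0.20 and 0.02 in the 3 comparisons with filtered air. They were −0.0409 for combined against PM2.5, beside −0.00858 over all genes, and 0.234 for combined against metformin, beside 0.0159. Against metformin 26 of the 34 genes lay above 0.

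Abcc3, an export pump for conjugates in the hepatocyte membrane, was higher in all 5 comparisons. It averaged 15.31 ± 0.17 in combined, 14.77 ± 0.38 in PM2.5, 14.50 ± 0.05 in metformin and 13.86 ± 0.32 in filtered-air livers (SD, n = 5 each). The rises against filtered air were 0.92 ± 0.17 with PM2.5 (adjusted p = 0.00351), 0.64 ± 0.17 with metformin (0.0392) and 1.45 ± 0.17 in the combined group (8.96e-06), all by limma. The metformin call was lost in 9 of 10 fits without 1 mouse (adjusted p up to 0.104). Me1 and Pgd, which make NADPH, fell with metformin. Me1 fell by 1.49 ± 0.22 (adjusted p = 0.000668) and Pgd fell by 1.83 ± 0.32 (adjusted p = 0.0034). In combined livers against filtered air the differences were −1.07 ± 0.22 for Me1 and −1.68 ± 0.32 for Pgd, and with the negative-control covariate the call of Me1 was lost there (−0.86, adjusted p = 0.0632). Gstm4, a glutathione transferase, fell by 0.92 ± 0.19 with metformin (adjusted p = 0.00876), and its probes may also read close paralogs. Hmox1, the haem oxygenase that NRF2 induces, was higher in combined than in metformin livers by 1.07 ± 0.36 (adjusted p = 0.0431), a call lost in 7 of 10 fits without 1 mouse and with the covariate (1.22, adjusted p = 0.0516).

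The list of glutathione and thioredoxin genes, which holds 5 of the 10 genes, had 32 tested of 39. In PM2.5 against filtered air 2 rose and 2 fell, in metformin 2 rose and 0 fell, and in combined 6 rose and 8 fell. These were 12.5%, 6.25% and 43.8% of the list, beside 5.17%, 3.15% and 34.9% of all tested genes. Txnip, the inhibitor of thioredoxin, averaged 14.29 ± 0.72 in combined, 14.98 ± 0.34 in PM2.5, 14.45 ± 0.90 in metformin and 13.05 ± 0.18 in filtered-air livers (SD, n = 5 each). It rose by 1.93 ± 0.34 with PM2.5 (3.81-fold, adjusted p = 0.00309) by 1.40 ± 0.34 with metformin (adjusted p = 0.0283) and by 1.24 ± 0.34 in combined livers (adjusted p = 0.00767). The metformin call was lost in 6 of 10 fits without 1 mouse. The combined call of Txnip was not examined under the alternatives. Chac2, a glutathione-degrading enzyme, fell by 1.13 ± 0.18 with PM2.5 (adjusted p = 0.00138) and fell by 1.23 ± 0.18 in combined livers (adjusted p = 4.43e-05).

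Oplah, the 5-oxoprolinase of the glutathione cycle, rose in combined livers against filtered air by 1.64 ± 0.22 (adjusted p = 2.21e-05 by limma). It averaged 9.95 ± 0.32 in combined, 9.05 ± 0.31 in PM2.5, 9.28 ± 0.48 in metformin and 8.30 ± 0.32 in filtered-air livers (SD, n = 5 each), and was called higher in the other four comparisons as well. Against filtered air its PM2.5 call was lost in 8 of 10 fits without 1 mouse (adjusted p up to 0.152) and its metformin call in 3 of 10 (up to 0.055). Ggct, a step before it, fell by 1.31 ± 0.25 in combined livers (adjusted p = 0.000491), a call lost with the negative-control covariate (−0.80, adjusted p = 0.0811). Prdx4 and Prdx3, peroxiredoxins of the endoplasmic reticulum and the mitochondria, passed as lower in combined livers, at −1.18 ± 0.21 (adjusted p = 0.000238) and −0.89 ± 0.16 (adjusted p = 0.000364). With the covariate Prdx4 was −0.57 and no longer called (adjusted p = 0.0526), and Prdx3 was −0.64 (adjusted p = 0.0494).

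**Figure D4:**
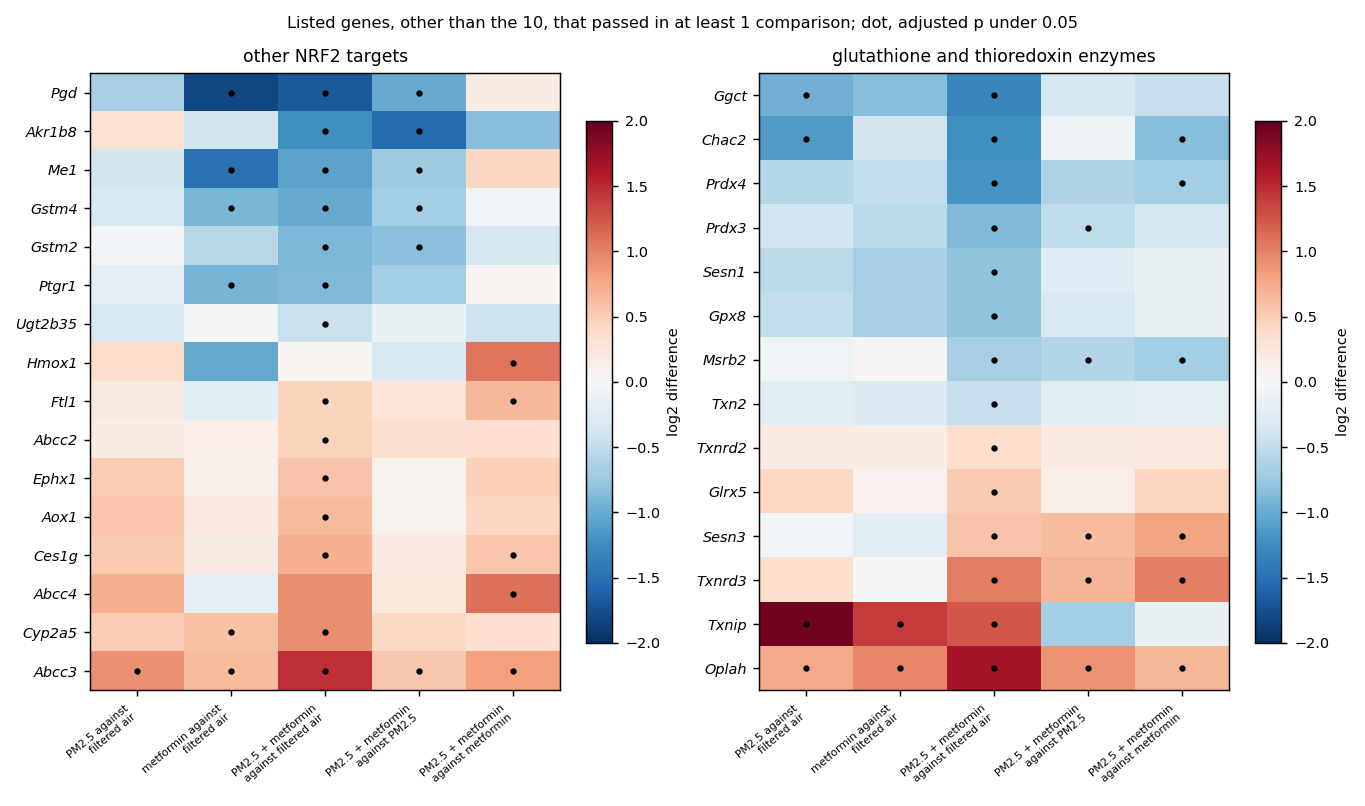
Log2 differences of listed genes that passed in at least 1 comparison, as heat maps of 16 other NRF2 targets and 14 glutathione and thioredoxin genes, with a dot where the adjusted p was under 0.05; columns are the 5 comparisons. Abcc3 and Oplah are higher in all 5, and the targets that passed in combined livers run in both directions.

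In the list for superoxide and peroxide removal, with 15 tested genes, 0 passed in PM2.5 or metformin against filtered air. The shares of all tested genes there were 5.17% and 3.15%. In combined livers 3 rose and 2 fell, which was 33.3% of the list beside 34.9% of all tested genes. Sirt3, a mitochondrial deacetylase that acts on SOD2, rose there by 1.17 ± 0.21 (adjusted p = 0.000283). It was 0.67 and not called with the negative-control covariate (adjusted p = 0.0603), and 0.74 without combined mice 2 and 4 (adjusted p = 0.00362). In the list of oxidant sources, with 12 tested genes, 0 passed in PM2.5 or metformin. In combined livers 3 rose and 2 fell, which was 41.7% of that list, again beside 34.9% of all tested genes. Xdh, xanthine dehydrogenase, rose by 1.27 ± 0.19 (adjusted p = 5.34e-05), and Hao1, a peroxisomal oxidase that makes hydrogen peroxide, fell by 1.14 ± 0.26 (adjusted p = 0.00189). With the covariate Xdh was 0.78 (adjusted p = 0.014), and Hao1 was −0.68 and no longer called (adjusted p = 0.17). Cybb, the phagocyte NADPH oxidase, was lower in combined than in PM2.5 livers by a log2 difference of −1.49 ± 0.35 (adjusted p = 0.0101), beside 8 of 11 macrophage and 4 of 8 endothelial markers that fell in the same comparison. The part of those cells in the Cybb result was not tested. In all 5 lists, 0 genes passed in the interaction.

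The counts were also taken with the negative-control median as a covariate, and without combined mice 2 and 4, whose arrays had the highest such medians. That median did not overlap between combined and filtered-air arrays, so array background and treatment cannot be told apart there. In combined against filtered air 8 regulators passed as reported, 2 with the negative-control covariate and 4 without these mice. The same counts were 14, 4 and 9 for other targets, 14, 4 and 10 for glutathione and thioredoxin genes, 5, 1 and 3 for superoxide and peroxide removal, and 5, 1 and 4 for oxidant sources. Over all tested genes they were 4136, 1054 and 2544, so the drop was not particular to the lists. Of 24 listed genes singled out there by the naming rule, 15 lost their call with the covariate and 4 without these mice. Crebbp, Btrc, Abcc3, Pgd, Cyp2a5, Oplah, Chac2, Prdx3 and Xdh kept theirs under both.

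In combined against PM2.5, 0 genes of any list passed with the covariate or without these mice, so the calls of Abcc3, Oplah and Cybb in that comparison were among those lost. Over all tested genes 1383 passed there as reported, 79 with the covariate and 206 without these mice. In combined against metformin the 5 lists, in the order just used, had 2, 5, 6, 2 and 3 genes called as reported, 1, 2, 4, 1 and 2 with the covariate, and 1, 1, 2, 1 and 0 without these mice. Over all tested genes 1933, 1009 and 499 passed under those 3 settings. Of 17 listed genes singled out there, 7 and 12 lost their call. With the covariate 2 of 7 were lost in PM2.5 against filtered air and 3 of 8 in metformin against filtered air. None of the listed genes so singled out turned its sign under either alternative.

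Single mice also moved the list counts. Over fits without 1 mouse, the regulators called ranged over 0 to 4 in PM2.5 against filtered air (3 as reported), and the glutathione and thioredoxin genes over 2 to 4 (4) there and 0 to 5 (2) in metformin. Other targets ranged over 1 to 4 (1) in PM2.5, 3 to 4 (6) in metformin and 11 to 14 (14) in combined livers against filtered air. They ranged over 1 to 8 (6) in combined against PM2.5 and 2 to 7 (5) in combined against metformin, and the glutathione and thioredoxin genes over 1 to 9 (5) and 4 to 9 (6). In combined against filtered air each of the 5 list counts stayed within 1.5 times of the reported one when 1 mouse was left out.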

How the data were processed

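The deposited values are log2 signals of probe sets on 20 single-channel arrays, 1 per mouse, which the authors made with Affymetrix Expression Console per the submitters' processing notes. Its version, the summary method and the genome build are not given in the sources used here. The design text and the probe set identifiers point to different array types, and gene names followed the identifiers. Of 28846 probe sets, 6640 were controls, and 19572 of the other 22206 had 1 gene, 2634 none. The values were not renormalized. For a gene with several probe sets the highest mean was used, and genes with a mean not above log2 4.05 (the 40th percentile) were excluded as dim. Array medians were 4.77 to 4.92. Arrays give no depth, and their number limits the precision.

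A limma 3.58.1 model (R 4.3.3) with a mean for each of 4 groups and eBayes moderation (5.68 prior and 16 residual degrees of freedom) gave all contrasts, tested on simulated data beforehand. Exact permutation tests used all 252 splits of 5 against 5 and are unadjusted unless a correction is stated. Members and lists were chosen with earlier results of these data known. Named were all 10 members in every comparison, up to 5 passing genes of lowest p per list and comparison, and the 5 genes most correlated with Nqo1 and Nfe2l2. The alternatives are given in the closing section, and leaving out combined mice 2 and 4 was chosen after seeing the data. No sample was excluded, imputed or dropped in the fits reported.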

Additional observations from a re-analysis of the deposited data

Results flagged for a closer look

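Negative-control probe sets, which the gene comparisons do not use, had a higher median signal in the combined group than in filtered air, by 0.184 on the log2 scale (means 4.59 and 4.41). The combined arrays lay at 4.44 to 4.79 and the filtered-air arrays at 4.36 to 4.43, without overlap. This result was flagged because the 2 groups did not overlap. That alone fixes the two-sided exact permutation p at 0.00794, the smallest possible with 5 against 5, so the p adds nothing to it. The metformin arrays, at 4.45 to 4.54, also lay above all filtered-air arrays. Of 40 groups of 5 values, 1 per member and group, 0 held a liver that stood apart from the other four by Dixon's test.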

How the results depend on the processing

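No paired analysis was possible because the mouse numbers were given in accession order and pair no mice.

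Of the 10 members, 0 were called in PM2.5 against filtered air with no filter on dim genes (Nfe2l2 adjusted p = 0.0526). Exact permutation tests, corrected over the 10 members in all comparisons between groups together, also gave 0 there. Array weights gave 2 in metformin against filtered air (Gclm 0.50, adjusted p = 0.0233, and Nfe2l2 −0.90, 0.0183). In combined against filtered air, 1 was left in a fit of those groups alone (Nfe2l2 0.0655). There 0 were left with the negative-control covariate, without combined mice 2 and 4 or by exact permutation. The smallest p that an exact test can give here is 0.00794, and a lone test at that p cannot pass this correction. The counts of 0 by exact permutation therefore cannot show whether a call is fragile. The test of any difference called 2, with Gclm added, under a 60th percentile filter, quantile normalization, array weights, trend and robust options and without combined mice 2 and 4. Leaving out 1 mouse gave 0 to 1 members called in PM2.5 against filtered air, 0 to 1 in metformin, 0 to 2 in combined, 0 to 1 in combined against PM2.5, 0 to 2 in combined against metformin and 0 to 3 in any difference.

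Differences near 0 changed sign, none of them called. In PM2.5 against filtered air these were Txnrd1 0.0333 with quantile normalization, Keap1 −0.0262 with quantile normalization, Keap1 −0.0304 with median centring, Cat −0.0225 with median centring, Sod2 −0.0259 with median centring, Txnrd1 0.0210 with array weights, Keap1 −0.0476 with array weights, Keap1 −0.00613 with the covariate. In metformin against filtered air these were Cat 0.00301 with the covariate. In combined against filtered air these were Gsr 0.0263 with quantile normalization, Txnrd1 −0.0335 with the covariate, Gsr 0.172 with the covariate, Gsr 0.172 with mice 2 and 4 left out. In combined against metformin these were Nfe2l2 −0.0296 with quantile normalization, Sod2 0.00894 with quantile normalization, Txnrd1 −0.0206 with array weights, Txnrd1 −0.0361 with the covariate, Txnrd1 −0.0343 with mice 2 and 4 left out. In the interaction these were Txnrd1 −0.0416 with array weights, Txnrd1 −0.0342 with mice 2 and 4 left out. Ranges over fits without 1 mouse, for differences that changed sign in at least 1 of them, follow. For PM2.5 against filtered air they were Srxn1 −0.0158 to 0.273, Keap1 −0.0964 to 0.0732, Sod2 −0.0391 to 0.0447, Txnrd1 −0.0577 to 0.0512, Cat −0.0151 to 0.0272. For metformin against filtered air they were Gclc −0.0690 to 0.135, Srxn1 −0.111 to 0.414, Cat −0.0405 to 0.0297. For combined against filtered air they were Gclc −0.0463 to 0.265, Nqo1 −0.258 to 0.0693, Gsr −0.142 to 0.100. For combined against PM2.5 they were Srxn1 −0.0703 to 0.292, Gclm −0.0542 to 0.144, Nfe2l2 −0.0765 to 0.326. For combined against metformin they were Gclc −0.0905 to 0.221, Txnrd1 −0.0776 to 0.231, Srxn1 −0.148 to 0.377, Nqo1 −0.0471 to 0.347, Nfe2l2 −0.216 to 0.186. For the interaction they were Srxn1 −0.287 to 0.238, Txnrd1 −0.0775 to 0.231.

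Counts over all tested genes moved more than 1.5 times from the reported 612 in PM2.5 against filtered air (1376 with array weights), 373 in metformin against filtered air (854 with weights, 147 with the covariate), 4136 in combined against filtered air (1054 with the covariate, 2544 without mice 2 and 4), 1383 in combined against PM2.5 (509 in a fit of those groups, 79 and 206), 1933 in combined against metformin (1021 in a fit of those groups, 1009 and 499), 22 in the interaction (108 with weights, 44 and 10) and 3807 in any difference (1598 and 2377). Leaving out 1 mouse gave 208 to 725, 157 to 432, 3394 to 4338, 637 to 2143, 1138 to 2407, 7 to 289 and 2961 to 4247 in that order. The causes were not tested. Nfe2l2 and Keap1 were read near background, as were Oplah and Btrc in filtered air.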
